A study of Mus musculus with 12 samples.

Results

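Chemoattractant receptors were followed in bulk RNA sequencing of mouse bone marrow derived macrophages, as 9 genes of the 55401 gene IDs in the count table: Ccr1, Ccrl2, Cx3cr1, Cxcr4, C3ar1, C5ar1, C5ar2, Fpr1 and Fpr2. They were chosen by name, each matched to 1 gene ID, and not by a cut on a measured value. Earlier results of these data were known when they were chosen. All libraries came from mice of the C57BL6 background, whose bone marrow cells were grown in M-CSF at 20 ng/mL, the colony-stimulating factor that drives precursors into macrophages, and taken on day 7. The young group held 6 libraries from animals of 8 weeks and the old group 6 libraries from animals of 12 months. No other treatment or genotype was labelled. The labels call the libraries biological replicates and do not say whether each came from its own animal, so a p-value reflects variation among the libraries only. In bulk RNA, fewer cells of a type and less RNA per cell cannot be told apart.

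Chemoattractant receptors sit in the cell membrane, cross it as 7 helices, and in most cases pass the signal of a bound attractant to inhibitory G proteins, which turn on phosphoinositide 3-kinase, Rac and actin so that the cell moves up a gradient. Ccr1, Cx3cr1 and Cxcr4 answer chemokines, C3ar1 and C5ar1 answer the anaphylatoxins C3a and C5a released from complement, and Fpr1 and Fpr2 answer formylated peptides of bacteria and mitochondria. Ccrl2 and C5ar2 are atypical: Ccrl2 binds the attractant chemerin and presents it to other cells, and C5ar2 binds C5a without coupling to G proteins in the usual way. In macrophages these receptors guide entry into inflamed tissue, and Cxcr4 and Cx3cr1 also help to hold monocytes and macrophages in place.

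The libraries held 19.3 to 25.2 M assigned counts (1 M is 1000000). Levels are given in CPM, counts scaled to a library of 1000000, with library sizes adjusted by the trimmed mean of M values (TMM), and differences were tested with edgeR's quasi-likelihood test over 12620 genes at an adjusted p of 0.05, which 2 genes passed. The labelled cell type showed in the macrophage markers, which summed to 30739 to 50593 CPM across young and 36656 to 49347 CPM across old libraries. The 14 neutrophil markers summed to 74.0 to 243 CPM, led by Csf3r, which reached 179.8 CPM, with Mmp8 at up to 28.4 and S100a9 at up to 25.8 CPM, while Ly6g, Elane and Cxcr2 of the same list reached at most 0.0935, 0.406 and 0.452 CPM. Some libraries stood apart from the rest. The mean log2 CPM of 30 cell cycle genes reached 6.86 for young replicate 6, 6.25 for old replicate 2 and 5.69 for old replicate 3, against 4.01 to 5.32 for the other 9. The mean log2 CPM of 20 interferon-stimulated genes was highest in young replicate 5 (8.02) and lowest in young replicate 6 (5.64). Old replicate 6 alone held transcripts of T cells, with the 8 lymphocyte markers summing to 28.5 CPM against 0 to 0.421 CPM in the other 11 libraries.

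The first question was how much RNA of each receptor these macrophages carried. C3ar1, Cxcr4 and C5ar1 made up nearly all of it. Per length of exon, C3ar1 stood at a mean of 236 CPM per kb over the 12 libraries and gave 54.2% of the summed level of the 9 genes. Cxcr4 stood at 101 CPM per kb (23.2%) and C5ar1 at 84.4 CPM per kb (19.4%). The other 6 genes were far lower on the same scale: Ccrl2 at 6.09, Ccr1 at 3.24, Cx3cr1 at 1.83, C5ar2 at 1.27, Fpr2 at 0.864 and Fpr1 at 0.318 CPM per kb. The order had 2 clear steps, at which the ranges over 12 libraries did not overlap. C3ar1 (156 to 307 CPM per kb) lay above Cxcr4 (57.9 to 135) in all 12 libraries, and C5ar1 (62.5 to 105) lay above Ccrl2 (4.51 to 7.34). At every other step neighbours overlapped in range. Cxcr4 was above C5ar1 in 9 of 12 libraries and Cx3cr1 above C5ar2 in 7 of 12, so these 2 orders varied by library. Ccrl2 was above Ccr1, Ccr1 above Cx3cr1, C5ar2 above Fpr2, and Fpr2 above Fpr1 in 11 of 12 libraries each.

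**Figure D1:**
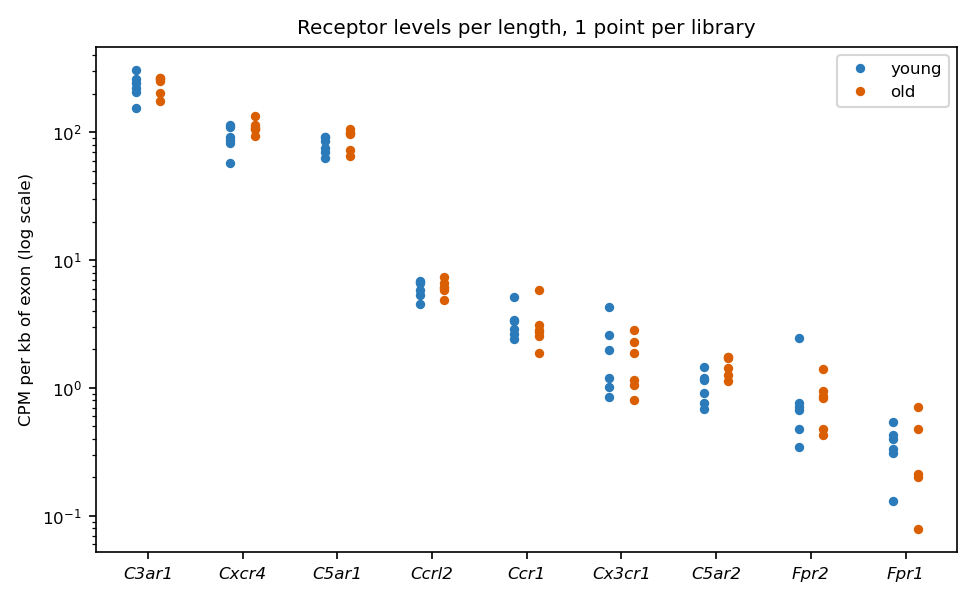
Level of each receptor per length of exon (CPM per kb, log scale), 1 point per library, 6 young in blue and 6 old in orange, ordered by the mean. C3ar1, Cxcr4 and C5ar1 lie between 57.9 and 307 CPM per kb and the other 6 genes at or under 7.34 CPM per kb. A log axis cannot show a 0, so old replicate 1 is missing for Fpr1.

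Against all genes, C3ar1 ranked very high. Its mean CPM lay at the 99.3 percentile of the 12620 tested genes, with C5ar1 at the 94.0 and Cxcr4 at the 92.6 percentile. Ccrl2 (43.3), Ccr1 (33.4), Cx3cr1 (31.9) and C5ar2 (24.1) lay below the middle, and Fpr2 (10.2) and Fpr1 (0.2) near the floor of what could be tested. The libraries also differed unevenly in these genes. The within-group standard deviation of log2 CPM was 0.98 for Fpr1, 0.80 for Cx3cr1 and 0.75 for Fpr2, which placed them at the 97.8, 95.7 and 94.8 percentiles of spread. The median over all tested genes was 0.22. Ccrl2 varied as little as the typical gene (0.22), and C5ar1 (0.26), Cxcr4 (0.27) and C3ar1 (0.29) slightly more.

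The second question was whether the receptors differ between young and old macrophages. None of the 9 genes passed edgeR's adjusted threshold, beside 0.0158% of all tested genes. DESeq2 also called 0 of 9. The groups overlapped in all 9 genes, while 0.206% of tested genes showed groups that did not overlap. At an unadjusted p below 0.05 edgeR and DESeq2 each held 1 gene, C5ar2, and 5.47% of all tested genes reached that level in edgeR. The log2 fold change of old over young was positive in 5 of 9 genes with a median of 0.03, beside 47.5% positive and a median of -0.01 over all tested genes.

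**Figure D2:**
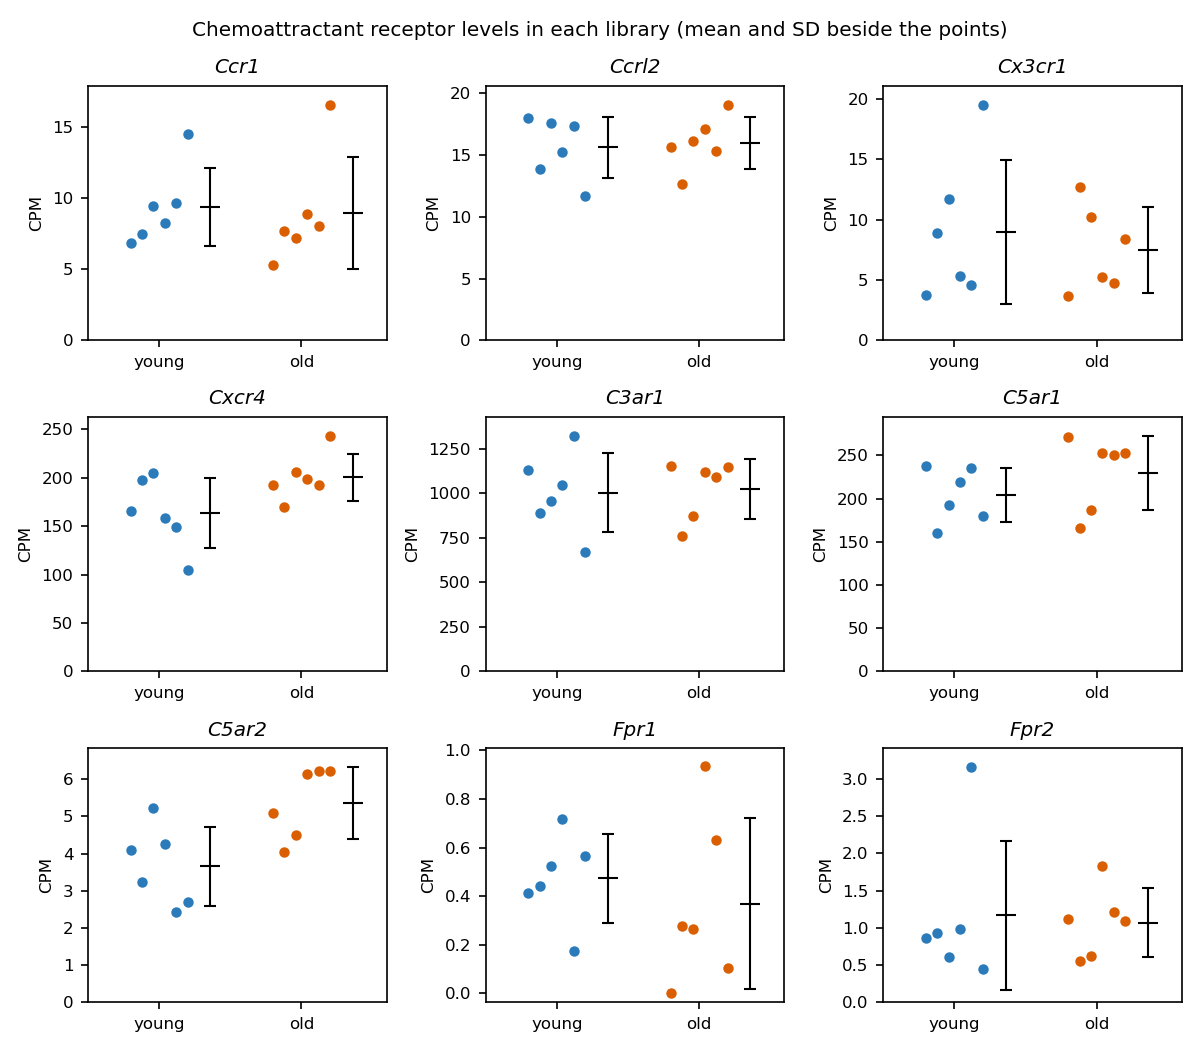
CPM of each of the 9 receptors in the 6 young (blue) and 6 old (orange) libraries, in replicate order within each group, on axes of their own. The bar beside each group gives the mean and SD. The groups overlap in every panel, and the C5ar2 panel shows 3 old libraries above all young ones.

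Among the chemokine receptors, Cxcr4, the receptor of Cxcl12 that holds leukocytes in the marrow, was the abundant one. Cxcr4 (ENSMUSG00000045382, chromosome 1, 128588199 to 128592293, minus strand, GRCm38) was at 105 CPM in the lowest, 162 in the median and 205 in the highest young library, and at 170, 196 and 243 CPM in old ones. Young replicate 6 was the lowest of all and old replicate 6 the highest, 2 old libraries lay above every young one, and the groups overlapped. Means were 163 ± 36.4 CPM over the young and 200.45 ± 24.3 CPM over the old libraries (SD, n = 6 each). The log2 fold change was 0.29 with a standard error of 0.14 and an edgeR adjusted p of 0.77 (unadjusted p = 0.053). T cells also express Cxcr4, and without old replicate 6, the library with T cell transcripts, the log2 fold change was 0.23 (edgeR unadjusted p = 0.13, adjusted p = 1.0). The part of those transcripts in the Cxcr4 level was not tested. Without young replicate 6 the log2 fold change was 0.20.

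Ccr1, a receptor for Ccl3, Ccl5, Ccl6, Ccl9 and related chemokines on monocytes and macrophages, was much lower. Ccr1 (ENSMUSG00000025804, chromosome 9, 123962124 to 123968692, minus strand) was at 6.86, 8.87 and 14.6 CPM in the lowest, median and highest young library, and at 5.32, 7.88 and 16.6 CPM in old ones. A single library of each age stood high, young replicate 6 and old replicate 6, and the other 10 libraries lay between 5.32 and 9.70 CPM. Old over young, the log2 fold change was -0.07 with a standard error of 0.25 (edgeR adjusted p = 0.95). Its value hung on those libraries: it was 0.10 without young replicate 6 and -0.34 without old replicate 6, with edgeR adjusted p-values of 0.92 and 1.0. Old replicate 6 is the library with T cell transcripts, and their part in its Ccr1 level was not tested.

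Cx3cr1, the receptor of fractalkine (Cx3cl1) and a common marker of resident macrophages and microglia, varied most of the chemokine receptors. Cx3cr1 (ENSMUSG00000052336, chromosome 9, 119901616 to 120069879, minus strand) was at 3.80, 7.14 and 19.5 CPM in the lowest, median and highest young library and at 3.64, 6.84 and 12.7 CPM in old ones. The highest of each age were young replicate 6 and old replicate 2, the libraries of highest cell cycle level, and replicate 1 was the lowest in both ages. The highest library held 5.36 times the lowest. The log2 fold change was -0.26 with a standard error of 0.43 and a 95% interval of -1.19 to 0.67 (edgeR adjusted p = 0.89), and it was 0.13 without young replicate 6. Ccrl2 (ENSMUSG00000043953, chromosome 9, 111054486 to 111057519, minus strand), the atypical receptor that binds chemerin, was steady by contrast. It was at 11.7, 16.3 and 17.98 CPM in the lowest, median and highest young library and at 12.7, 15.9 and 19.1 CPM in old ones. The groups lay on top of each other, with a log2 fold change of 0.03, a standard error of 0.12 and a 95% interval of -0.23 to 0.29 (edgeR adjusted p = 0.95).

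C3ar1, the receptor of C3a and the most abundant of the set, held 16379 to 30548 counts per library. C3ar1 (ENSMUSG00000040552, chromosome 6, 122847138 to 122856161, minus strand) was at 672, 1002 and 1322.5 CPM in the lowest, median and highest young library, and at 762, 1106 and 1151.5 CPM in old ones. The extremes of both directions were young libraries, replicate 6 low and replicate 5 high, and old replicate 2 was the lowest old one. The means were 1003 ± 221 and 1024 ± 166 CPM (SD, n = 6 each). Between the ages the log2 fold change was 0.03 with a standard error of 0.15 and a 95% interval of -0.29 to 0.35 (edgeR adjusted p = 0.96).

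C5ar1, the signalling receptor of C5a, and C5ar2, its atypical partner, lie 2.6 kb apart on chromosome 7. C5ar1 (ENSMUSG00000049130, 16246743 to 16259540, minus strand) was at 161, 206 and 238 CPM in the lowest, median and highest young library and at 166, 251 and 271 CPM in old ones. Old replicates 1, 4, 5 and 6 lay above every young library, while old replicates 2 and 3 lay among the lower young ones. Its log2 fold change was 0.17 with a standard error of 0.13 (edgeR adjusted p = 0.78). With the 3 libraries of highest cell cycle level left out (number 6 of the young, numbers 2 and 3 of the old) it was 0.30 with a standard error of 0.10 and an edgeR adjusted p of 0.18.

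C5ar2 (ENSMUSG00000074361, 16234585 to 16244154, minus strand) had the lowest p of the 9 genes. It was at 2.42, 3.66 and 5.22 CPM in the lowest, median and highest young library and at 4.05, 5.61 and 6.23 CPM in old ones. Old replicates 4, 5 and 6 lay above all young libraries, young replicates 5 and 6 were the lowest of all, and the groups overlapped. Its mean was 3.66 ± 1.06 CPM over the young and 5.37 ± 0.963 CPM over the old libraries (SD, n = 6 each), a ratio of 1.47. The log2 fold change was 0.55 with a standard error of 0.20, a 95% interval of 0.13 to 0.97, an unadjusted p of 0.014 and an edgeR adjusted p of 0.77. DESeq2 gave an unadjusted p of 0.0065 and an adjusted p of 0.89. These values rest on 56 to 138 counts per library, and 3.6% of the exon bases are shared with Gm26473, which held 0 counts.

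The formyl peptide receptors were close to the limit of these libraries. Fpr2 (ENSMUSG00000052270, chromosome 17, 17887824 to 17893952, plus strand), which also binds annexin A1 and serum amyloid A, was at 0.445, 0.898 and 3.16 CPM in the lowest, median and highest young library and at 0.558, 1.10 and 1.82 CPM in old ones. Young replicate 5 stood far above the other young libraries, and the groups overlapped. The log2 fold change was -0.12 with a standard error of 0.45 (edgeR adjusted p = 0.95), and 0.48 without young replicate 5 (edgeR adjusted p = 0.91). Fpr1 (ENSMUSG00000045551, chromosome 17, 17876471 to 17883940, minus strand), the high-affinity receptor for formylated peptides, lies 3.9 kb away and held 0 to 20 counts per library. It was at 0.173, 0.484 and 0.719 CPM in the lowest, median and highest young library and at 0, 0.273 and 0.935 CPM in old ones. Old replicate 1 was the library with 0 counts, which allows a level of up to 0.139 CPM, and old replicate 4 was the highest of all. For Fpr1 the log2 fold change was -0.34 with a 95% interval of -1.59 to 0.91 (edgeR adjusted p = 0.89). The formyl peptide receptor genes are similar copies and reads that align to several places were not counted, so the levels of both are uncertain.

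**Figure D3:**
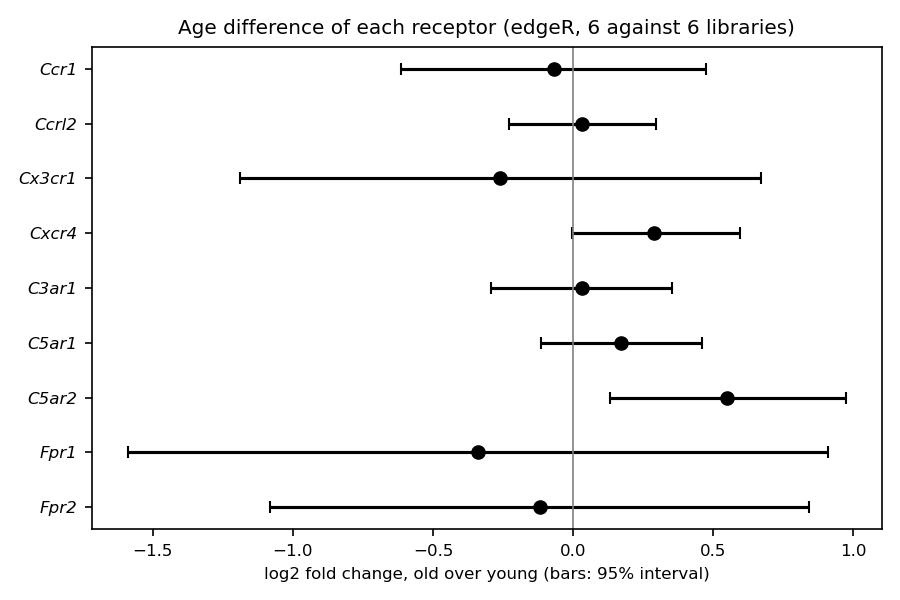
Log2 fold change of old over young for each receptor (points) with its 95% interval from edgeR's quasi-likelihood fit (bars), 6 libraries against 6. The interval of C5ar2 lies above 0 before adjustment over all genes, from 0.13 to 0.97. Those of Fpr1, Fpr2 and Cx3cr1 are the widest, and that of Ccrl2 the narrowest.

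The third question was how the receptors varied together from library to library. C3ar1 was high in the libraries where C5ar1 or Fpr2 was high, and Cx3cr1 was low there. Of the 36 pairs among the 9 genes, 7 had a Pearson r past a permutation p of 0.05 after Benjamini-Hochberg adjustment over the 36. That r was taken over all 12 libraries with the age difference left in. The share of all gene pairs past this level was not worked out. Since 32.0% of all tested genes had a slope on the cell cycle level, the 7 pairs are not shown to be particular to receptors. C3ar1 and Cx3cr1 ran opposite, with r = -0.87 (permutation p = 0.00012, adjusted p = 0.0043) and rho = -0.87 (permutation p = 0.00027, adjusted p = 0.0097) over 12 libraries. Within the ages r was -0.90 in young (exact permutation p = 0.013) and -0.81 in old libraries (exact permutation p = 0.029), and without the 2 libraries farthest from the median of Cx3cr1, young replicate 6 and old replicate 2, it was -0.73. The opposition of these 2 genes thus showed within each age.

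C3ar1 and C5ar1, the abundant complement receptors, ran together, with r = 0.83 (permutation p = 0.00057, adjusted p = 0.0080) and rho = 0.83 (permutation p = 0.0015, adjusted p = 0.021). Within the ages r was 0.77 in young (exact permutation p = 0.057) and 0.99 in old libraries (exact permutation p = 0.0014), and it was 0.82 without young replicate 6 and old replicate 2. C3ar1 and Fpr2 had r = 0.84 (permutation p = 0.00067, adjusted p = 0.0080) and rho = 0.82 (permutation p = 0.0018, adjusted p = 0.021), with 0.83 in young (exact permutation p = 0.056), 0.87 in old (exact permutation p = 0.039) and 0.80 without the same 2 libraries. Cx3cr1 ran opposite to C5ar1, with r = -0.79 (permutation p = 0.0034, adjusted p = 0.024) and rho = -0.75 (permutation p = 0.0064, adjusted p = 0.046), and -0.73 without the 2 libraries. Within the ages r was -0.78 in young (exact permutation p = 0.072) and -0.87 in old libraries (exact permutation p = 0.0083). C5ar1 and Fpr2 themselves did not pass, with r = 0.63 (permutation p = 0.025, adjusted p = 0.098) and rho = 0.69 (permutation p = 0.016, adjusted p = 0.09). The 4 pairs past the threshold named so far kept their sign in both ages, although not every one reached 0.05 within an age of 6 libraries. After the group means were subtracted, each of the 4 had a permutation adjusted p of 0.021.

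The other 3 pairs were less firm. Ccrl2 and C3ar1 had r = 0.82 (permutation p = 0.0014, adjusted p = 0.013) but rho = 0.68 (permutation p = 0.018, adjusted p = 0.09), and r was 0.48 without young replicate 6 and old replicate 2, so the relation rested on those libraries. Within the ages it was 0.86 in young (exact permutation p = 0.025) and 0.75 in old libraries (exact permutation p = 0.086). Cx3cr1 and Fpr2 had r = -0.72 (permutation p = 0.0071, adjusted p = 0.037) and rho = -0.78 (permutation p = 0.0043, adjusted p = 0.038), with -0.69 in young (exact permutation p = 0.10), -0.77 in old (exact permutation p = 0.085) and -0.55 without the same 2. With the group means subtracted this pair did not pass (r = -0.72, permutation p = 0.015, adjusted p = 0.087). Cxcr4 and C5ar2 had r = 0.74 (permutation p = 0.0041, adjusted p = 0.025) and rho = 0.67 (permutation p = 0.02, adjusted p = 0.09). After the group means were subtracted their r was 0.61 (permutation p = 0.07, adjusted p = 0.25), within the ages it was 0.62 in young (exact permutation p = 0.17) and 0.59 in old libraries (exact permutation p = 0.24), and without young replicates 5 and 6 it was 0.51. The number of pairs past the threshold was 7 and depended on single libraries: it was 4 without young replicate 6, 12 without young replicate 5, and 0 without young replicate 6 and old replicates 2 and 3 together, where 9 libraries remained. Neighbours on the chromosome did not stand out, since C5ar1 and C5ar2 had r = 0.50 (permutation p = 0.10, adjusted p = 0.26) and rho = 0.64 (permutation p = 0.03, adjusted p = 0.12), and Fpr1 and Fpr2 had r = -0.14 (permutation p = 0.66, adjusted p = 0.79) and rho = -0.04 (permutation p = 0.90, adjusted p = 0.98).

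**Figure D4:**
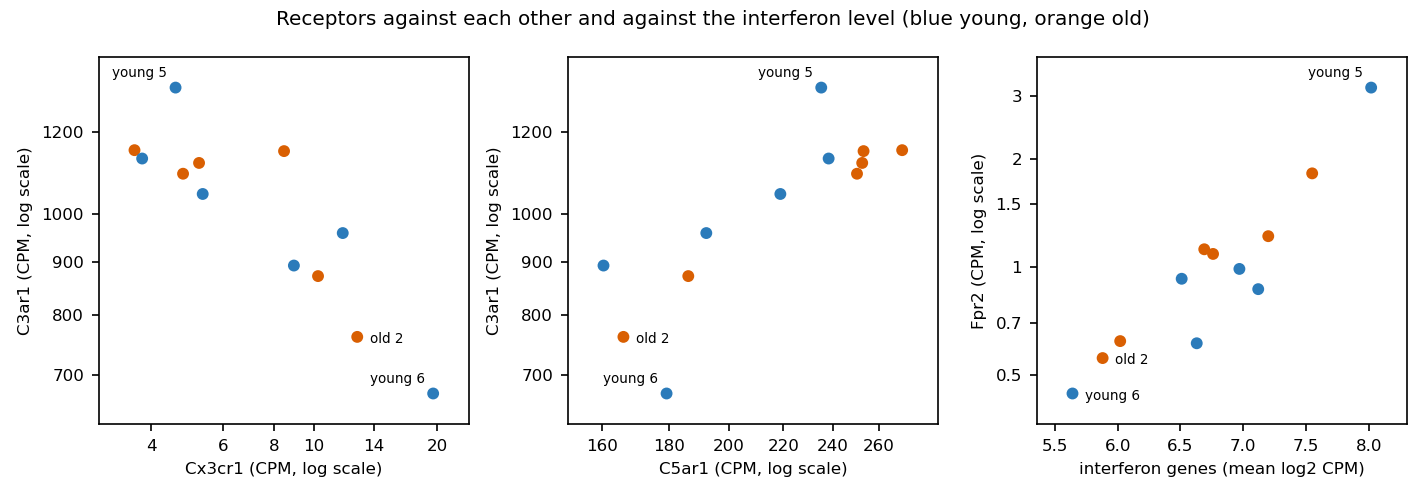
C3ar1 against Cx3cr1, C3ar1 against C5ar1 (all in CPM, log scales) and Fpr2 (CPM, log scale) against the mean log2 CPM of 20 interferon-stimulated genes, 1 point per library, young in blue and old in orange. C3ar1 runs against Cx3cr1 (r = -0.87) and with C5ar1 (r = 0.83). Young replicate 6 and old replicate 2 mark one end of the panels with Cx3cr1 and with the interferon-stimulated genes. In the panel with C5ar1 they are lowest in C3ar1, while young replicate 2 is lowest in C5ar1.

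The libraries differed in their cell cycle and interferon levels, so each receptor was fitted against those levels with the age group in the model, an addition made after the data were seen. On the cell cycle level, 5 of 9 receptors had a slope past an edgeR adjusted p of 0.05, 1 positive and 4 negative, beside 32.0% of all tested genes (17.3% positive and 14.8% negative). Cx3cr1 rose with the cell cycle level, by a slope of 0.67 log2 units per log2 unit with a standard error of 0.13 (edgeR adjusted p = 0.0018). C3ar1 (slope -0.30, standard error 0.04, edgeR adjusted p = 2.8e-05) and C5ar1 (slope -0.23, standard error 0.05, edgeR adjusted p = 0.0021) fell as it rose. So did Fpr2 (slope -0.76, standard error 0.20, edgeR adjusted p = 0.0098) and Ccrl2 (slope -0.19, standard error 0.05, edgeR adjusted p = 0.0097). The slopes of Cxcr4 (-0.16, edgeR adjusted p = 0.096) and C5ar2 (-0.23, edgeR adjusted p = 0.084) did not pass, nor did those of Ccr1 (0.05) and Fpr1 (-0.10), with edgeR adjusted p-values of 0.80 and 0.85. Without the 2 libraries farthest from the median, young replicate 6 and old replicate 2, the slopes of C3ar1 (-0.30, edgeR adjusted p = 0.02) and C5ar1 (-0.35, edgeR adjusted p = 0.01) still passed, among 5.33% of all genes (3.11% positive and 2.22% negative). That of Cx3cr1 was 0.65 with an edgeR adjusted p of 0.26, that of Fpr2 -1.01 (0.16) and that of Ccrl2 -0.11 (0.60). These 3 genes were thus not called without those libraries. The slope of Ccrl2 was smaller, while those of Cx3cr1 and Fpr2 stayed large with wider standard errors, of 0.29 and 0.38.

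On the interferon level, 4 of 9 receptors passed, 3 positive and 1 negative, beside 19.3% of all tested genes (8.95% positive and 10.4% negative). Fpr2 rose most steeply, by 1.11 log2 units per log2 unit with a standard error of 0.16 (edgeR adjusted p = 0.00022). C3ar1 (slope 0.38, standard error 0.06, edgeR adjusted p = 0.00033) and C5ar1 (slope 0.27, standard error 0.07, edgeR adjusted p = 0.014) rose as well, and Cx3cr1 fell (slope -0.92, standard error 0.17, edgeR adjusted p = 0.0016). The same 4 genes passed without young replicates 5 and 6, the libraries farthest from the median, with slopes of 0.89 for Fpr2, 0.34 for C3ar1, 0.42 for C5ar1 and -0.96 for Cx3cr1 and edgeR adjusted p-values from 0.011 to 0.035, among 11.7% of all genes (5.46% positive and 6.21% negative).

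The levels ran against each other over the libraries, as the ordered plot of libraries shows, so a fit with both was also made. With both in the model, Fpr2 alone kept a slope on the interferon level, of 1.45 with a standard error of 0.33 (edgeR adjusted p = 0.022), among 6.98% of all genes (3.66% positive and 3.32% negative). The receptors called on the cell cycle level in that fit were other ones, Cxcr4 (slope -0.44, standard error 0.13, edgeR adjusted p = 0.028) and C5ar2 (slope -0.64, standard error 0.18, edgeR adjusted p = 0.022), among 24.2% of all genes (12.4% positive and 11.8% negative). For C3ar1, C5ar1 and Cx3cr1 the parts of the 2 levels cannot be told apart in these libraries. The summed macrophage markers were also lowest in young replicate 6 (30739 CPM) and old replicate 2 (36656 CPM), and the neutrophil markers, mostly Csf3r, were lowest in the same 2 libraries, at 74.0 and 127 CPM against 158 to 243 CPM in the others. The summed monocyte and progenitor markers, mostly Irf8, were lowest there too, at 252 and 339.6 CPM against 365 to 536 CPM. By the mean log2 CPM of the tested markers, which weighs each gene alike, young replicate 6 stayed lowest in both lists (0.74 neutrophil, 2.3 monocyte). Old replicate 2 lay among the other libraries by that measure (2.14 and 2.87). Old replicate 6, the library with T cell transcripts, was next lowest in the neutrophil list (0.94) and highest in the monocyte list (3.72). The dendritic cell markers, mostly Clec10a, were at 21.3 CPM in young replicate 6, 76.4 CPM in old replicate 6, 80.7 CPM in old replicate 2 and 83.2 CPM in old replicate 3, against 143 to 302 CPM in the other 8, with young replicate 5 the highest. The part of these differences in the receptor levels was not tested.

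**Figure D5:**
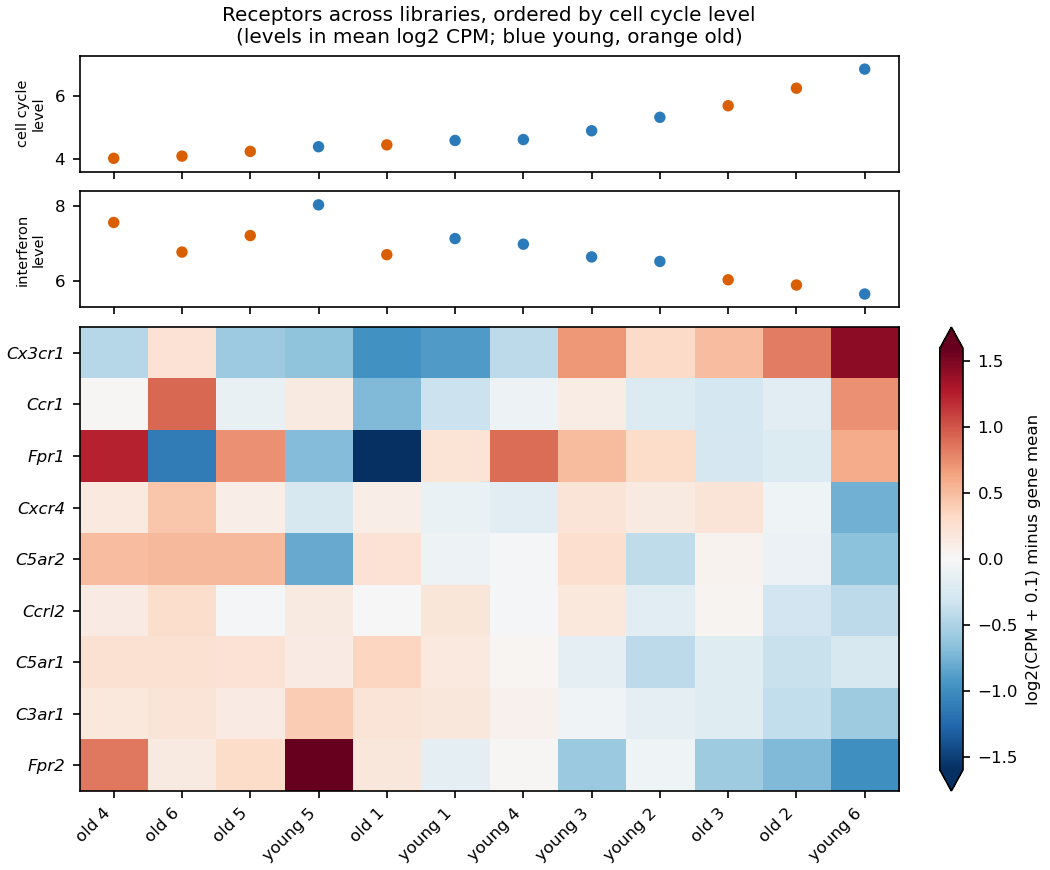
Levels of cell cycle and interferon-stimulated genes (mean log2 CPM, points, blue young and orange old) and of the 9 receptors (log2 level minus the gene's mean over 12 libraries, colour) with libraries ordered from the lowest to the highest cell cycle level. Cx3cr1 is high and C3ar1, C5ar1 and Fpr2 are low in the libraries at the right, old replicates 3 and 2 and young replicate 6.

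Because C3ar1 varied together with C5ar1 and with Fpr2 and against Cx3cr1, and C5ar2 had the lowest p for age, the 250 bases before the annotated start of these 5 genes are shown, 5′ to 3′ on the gene's own strand, from RefSeq on GRCm38.p6. They are C3ar1 at chr6:122856158-122856407, C5ar1 at chr7:16259339-16259588, C5ar2 at chr7:16242332-16242581 and Cx3cr1 at chr9:120068297-120068546, all on the minus strand, and Fpr2 at chr17:17887574-17887823 on the plus strand. The C5ar2 and Cx3cr1 windows lie inside the spans of these genes in the count table, before a start within the span. Most of the C5ar1 window also lies inside its gene's span, which ends at 16259540, and the C3ar1 window overlaps its span by a few bases. A further C5ar2 window, chr7:16244155-16244404, directly before the C5ar2 span, held none of the motifs below and is not shown. Capitals mark matches to the motifs searched on both strands: AP-1 (TGANTCA), NF-kB (GGACTTTCC), PU.1 (GAGGAAG), the TATA box (TATAAA), Sp1 (CCGCCC) and the interferon response element (GAAA, any 2 bases, GAAA). The motifs were chosen with the sequences in view.
C3ar1: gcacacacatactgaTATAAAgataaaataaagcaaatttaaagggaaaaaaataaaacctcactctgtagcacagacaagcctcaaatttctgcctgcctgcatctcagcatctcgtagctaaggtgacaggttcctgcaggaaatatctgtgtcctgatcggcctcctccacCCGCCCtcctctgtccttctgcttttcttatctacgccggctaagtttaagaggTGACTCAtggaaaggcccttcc
C5ar1: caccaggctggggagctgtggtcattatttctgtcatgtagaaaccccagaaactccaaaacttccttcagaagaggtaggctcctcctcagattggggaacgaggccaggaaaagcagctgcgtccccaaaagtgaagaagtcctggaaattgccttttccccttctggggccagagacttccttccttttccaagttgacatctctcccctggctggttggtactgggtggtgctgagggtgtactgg
C5ar2: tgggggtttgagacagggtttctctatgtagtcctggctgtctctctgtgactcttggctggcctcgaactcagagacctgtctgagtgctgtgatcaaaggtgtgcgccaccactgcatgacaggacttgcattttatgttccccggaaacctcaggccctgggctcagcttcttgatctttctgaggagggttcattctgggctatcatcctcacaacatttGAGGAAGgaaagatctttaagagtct
Cx3cr1: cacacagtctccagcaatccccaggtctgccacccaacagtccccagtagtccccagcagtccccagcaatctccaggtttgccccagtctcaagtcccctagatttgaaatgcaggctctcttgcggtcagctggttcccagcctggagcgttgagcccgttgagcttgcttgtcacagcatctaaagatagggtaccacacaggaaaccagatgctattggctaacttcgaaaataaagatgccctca
Fpr2: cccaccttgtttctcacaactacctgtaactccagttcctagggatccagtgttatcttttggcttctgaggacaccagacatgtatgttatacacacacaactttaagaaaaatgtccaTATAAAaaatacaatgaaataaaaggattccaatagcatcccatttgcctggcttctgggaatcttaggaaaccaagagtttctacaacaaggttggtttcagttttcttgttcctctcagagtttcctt
The C3ar1 window held an AP-1 match 22 bases, an Sp1 match 76 bases and a TATA match 235 bases before the start. The C5ar2 window shown held a PU.1 match 26 bases before it and the Fpr2 window a TATA match 130 bases before it. The C5ar1 and Cx3cr1 windows held no match, which says only that these letters are not in these 250 bases. Over 32851 RefSeq windows of the same length, 6.7% held the AP-1 letters, 0.3% NF-kB, 10.6% PU.1, 12.4% TATA, 32.7% Sp1 and 3.0% the interferon element. The base makeup differed: Fpr2 had 38.8% G and C with 0 CpG dinucleotides and C3ar1 45.6% with 5, beside medians of 52.4% and 6 over all windows. C5ar1 (52.8% and 2), Cx3cr1 (53.6% and 4) and C5ar2 (50.4% and 3) were near the median in G and C. Of the genes not shown, Cxcr4 had the most CpG dinucleotides, 19, with 61.2% G and C.

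The genes most like each receptor over the 12 libraries were found by the Pearson r of group-centred log2 CPM among 9424 genes of at least 5 CPM, as a description. C3ar1 was closest to Slc31a2 (r = 0.99), Tmcc3 (0.98) and Evl (0.98). C5ar1 was closest to the coreceptor Nrp1 (0.97), the G protein regulator Rgs2 (0.96) and the immediate early gene Fos (0.96). Fpr2 was closest to Tapbpl (0.97), Shisa5 (0.97) and Psme1 (0.96), of which Tapbpl and Psme1 act in antigen processing. Cx3cr1 was closest to Fam118a, L1cam and F11r, at 0.96 each, the last 2 being adhesion proteins. Cxcr4 was closest to Ankrd44 (0.98), Stard9 (0.97) and the cell cycle inhibitor Cdkn1b (0.97). C5ar2 was closest to the nuclear receptor partner Nrip1 (0.96), Cpeb3 (0.94) and Trpm7 (0.92), and Ccrl2 to Slc35f5 (0.97), Gtdc1 (0.95) and Snx13 (0.95). Ccr1 was closest to the macrophage lysosomal glycoprotein gene Gpnmb (0.94), Synj2 (0.91) and Sbk1 (0.89). By rank these were lower, with a Spearman rho of 0.78, 0.57 and 0.82, and Ccr1 stood high in 1 library of each age. Fpr1, with the fewest counts, had the loosest partners, P2ry12 (0.84), Hnrnph3 (0.81) and Camta1 (0.80), with a Spearman rho of 0.77, 0.56 and 0.69. The points share library depth and the cell cycle and interferon differences between libraries.

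The rest of the pathway was read from listed genes in the same age comparison. Among 20 other chemokine receptors, 6 were tested, 0 passed, and 4 of the 6 log2 fold changes were positive with a median of 0.17. Ccr2, which brings monocytes out of the marrow, averaged 38.097 ± 15.2 CPM over the young and 35.0 ± 6.33 CPM over the old libraries (SD, n = 6 each). Cxcr3 was at 8.24 ± 1.15 and 9.49 ± 2.64 CPM. Ccr4, Ccr8, Ackr1 and Ackr3 had 0 counts in every library, which allows up to 0.119 to 0.155 CPM. Cxcr6 and Ccr7, both expressed by T cells, were at 5.28 and 5.08 CPM in old replicate 6, the library with T cell transcripts, and at most 0.0898 and 0.519 CPM elsewhere.

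Of 19 other attractant receptors, 18 were in the table and 9 tested, 0 passed, and 7 of the 9 were positive with a median of 0.05. Ptafr, the receptor of platelet-activating factor, was at 244 ± 70.3 and 272 ± 60.6 CPM, and P2ry6, which senses UDP, at 244 ± 51.7 and 229 ± 36.5 CPM (SD, n = 6 each). S1pr2, a receptor of sphingosine 1-phosphate, was at 142 ± 21.8 and 152 ± 17.6 CPM. These 3 genes were thus in the range of Cxcr4 and C5ar1 in CPM, without correction for length. The further formyl peptide receptor genes Fpr3, Fpr-rs3, Fpr-rs4, Fpr-rs6 and Fpr-rs7 were at 0 counts in all 12 libraries. Fpr2 shares 3.7% of its exon bases with Fpr3, and reads that align to several of these similar copies were not counted. These values of 0 are therefore uncertain.

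RNA of attractants for some of these receptors was also present. Of 20 listed ligands, 19 were in the table and 15 tested, 0 passed, and 4 of the 15 were positive with a median of -0.22. Anxa1, the annexin that binds Fpr2, averaged 746 ± 76.0 CPM over the young and 801 ± 195 CPM over the old libraries (SD, n = 6 each). The Ccr1 ligands Ccl9 (352 ± 36.1 and 373 ± 20.2 CPM) and Ccl6 (217 ± 60.9 and 198 ± 38.5 CPM) followed. Cxcl12, the ligand of Cxcr4, was at most 0.632 CPM, and Hc, the mouse gene of complement C5, was at 0 counts. By unadjusted p, Ccl4 (83.0 ± 17.9 and 68.1 ± 7.47 CPM, edgeR unadjusted p = 0.048) and Saa3, a serum amyloid A (2.21 ± 0.825 and 1.26 ± 0.407 CPM, edgeR unadjusted p = 0.016), were the lowest, both with an edgeR adjusted p of 0.77 and both named after their values were seen.

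Downstream, 25 of 26 genes of chemotactic signalling were tested, 0 passed, and 13 of 25 were positive with a median of 0.01. The inhibitory G protein subunit Gnai2 was at 1051 ± 120.3 and 979 ± 86.5 CPM, Cdc42 at 711 ± 20.1 and 726 ± 31.9 CPM, and Rac2 at 436 ± 33.8 and 392 ± 44.6 CPM (SD, n = 6 each). Another subunit, Gnai1, was at 0 counts. Of the 3 genes with an unadjusted p below 0.05, named after their values were seen, the G protein subunit Gnai3 was at 78.1 ± 11.1 and 95.9 ± 15.02 CPM (edgeR unadjusted p = 0.020), Gna15 at 20.0 ± 2.35 and 15.9 ± 2.86 CPM (0.015), and the Rac activator Vav1 at 271 ± 15.01 and 248 ± 6.70 CPM (0.032). All 3 had an edgeR adjusted p of 0.77. Among genes that switch receptors off, 12 were tested, 0 passed at any level including an unadjusted p of 0.05, and 5 of 12 were positive with a median of -0.04. The receptor kinase Grk2 was at 411 ± 25.8 and 411 ± 29.3 CPM, and the arrestins Arrb2 and Arrb1 were at 362 ± 34.3 and 331 ± 34.7 CPM and at 315 ± 26.1 and 312 ± 18.8 CPM (SD, n = 6 each). DESeq2 called 0 genes of each of these 5 lists, and at an unadjusted p below 0.05 it held 2 ligands, 4 signalling genes and none of the other 3 lists, as edgeR did for those 3.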

How the data were processed

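RNA of 12 libraries was made into sequencing libraries with the TruSeq RNA v2 kit, which does not keep strand, per the labels' protocols. The authors deposited whole, unnormalised counts per gene, made with featureCounts 1.6.0 on Ensembl release 100 of GRCm38 without options for strand, pairs or multiply aligned reads, per the file headers. STAR, FastQC and mm10 are named, without versions, per the submitters' processing notes. Counts of Ccr1 and Fpr1 were even in 12 of 12 libraries, so mates may have been counted separately, and a limit from 3 counts covers counting error only. Library columns were matched by age and replicate number, and 55141 of 55401 gene IDs had a symbol in a reference table.

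From the counts, edgeR 4.0.16 in R 4.3.3 was run with TMM factors, its low-count filter (12620 genes, 99.9% of counts), robust quasi-likelihood fitting, the age group alone and Benjamini-Hochberg adjustment (two-sided, threshold 0.05). Biological variation was 21.7% (common coefficient) and standard errors had a median of 0.13. The fit was tested on simulated counts. A standard error is the absolute log2 fold change over the square root of F. Log2 CPM for levels and relations used a prior count of 2. CPM per kb used the exon length in the count table. Relations used 100000 permutations, exact within an age, in SciPy 1.17.1 and Python 3.11.15. Promoter windows from RefSeq were found for all 9 genes. Named genes were the 9 receptors, the 3 most abundant tested genes and any past the threshold in each list, and the 3 genes most like each receptor. A gene that this rule names is not reported here. Members and lists were chosen with earlier results of these data known. Alternatives were other scalings (size factors, library size), other filters, DESeq2 1.42.0, no robust fitting, a replicate block, a cell cycle covariate, each library left out, and the 3 libraries of highest cell cycle level left out. The alternatives on relations and slopes were added after the data were seen. No library was left out of the main results.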

Additional observations from a re-analysis of the deposited data

Results flagged for a closer look

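In 3 of 18 groups of 6 libraries checked (9 receptors in each age), 1 library stood far from the other 5. The cut used flags about 1 in 20 groups by chance if values are normally distributed. The 9 receptors share the same libraries and CPM need not be normally distributed, so 3 of 18 cannot be compared with that rate. Ccr1 was at 14.6 CPM in young replicate 6 against 6.86 to 9.70 CPM in the remaining 5, a gap of 0.63 of the whole range. Ccr1 was at 16.6 CPM in old replicate 6 against 5.32 to 8.88 CPM in the remaining 5, a gap of 0.68 of the range. Fpr2 was at 3.16 CPM in young replicate 5 against 0.445 to 0.988 CPM in the remaining 5, a gap of 0.80 of the range. Young replicate 6 had the highest cell cycle level, young replicate 5 the highest interferon level and old replicate 6 the T cell transcripts, and the part of these in the values was not tested.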

How the results depend on the processing

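No receptor passed the adjusted threshold under any of 21 alternatives, and none of the 5 other lists held a gene past it. Over all genes the count past the threshold was 2, and it was 4 without a low-count filter, 4 with the replicate block, 5 with the cell cycle covariate, 15 in DESeq2, and 1 to 5 with 1 library left out (5 without young replicate 3, 1 without young replicate 4). Of the receptor fold changes, 18 changed sign and 168 did not, and all were uncalled. A filter at a mean of 5 CPM left C5ar2, Fpr1 and Fpr2 untested. With the cell cycle covariate Ccrl2 was -0.02, Cx3cr1 0.04 and C3ar1 -0.06. Without young replicate 6 and old replicates 2 and 3 together Ccr1 was 0.21 and Fpr2 0.01, and 3 receptors (Cxcr4, C5ar1 and C5ar2) had an unadjusted p below 0.05, beside 2302 genes in all. With 1 library left out Ccr1 ranged from -0.34 to 0.10, Ccrl2 from -0.04 to 0.09, Cx3cr1 from -0.47 to 0.13, C3ar1 from -0.06 to 0.12 and Fpr2 from -0.34 to 0.48. C5ar2 ranged from 0.46 to 0.68, Cxcr4 from 0.20 to 0.37, C5ar1 from 0.11 to 0.25 and Fpr1 from -0.85 to -0.08, each of 1 sign.

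Pairs of receptors past the threshold numbered 7, from 4 to 12 with 1 library left out and 0 without the 3 libraries. Receptors with a slope on the cell cycle level numbered 5, and 2 without the 2 farthest libraries and 2 with the interferon level in the model. Those with a slope on the interferon level numbered 4, and 1 with the cell cycle level in the model. The cause was not tested.

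Whether the replicate numbers pair the libraries is not given in the labels, so same-numbered libraries were not treated as pairs. Their correlations were 0.31, 0.12, 0.02, 0.38, 0.39 and -0.17, over 0.1 in 4 of 6, and 2 of 6 libraries in each age matched their own number best. Such correlations cannot settle whether the libraries were paired. With the replicate block Fpr2 was 0.04 and no receptor passed, while the standard error was 0.11 in place of 0.25 for Ccr1 and 0.21 in place of 0.43 for Cx3cr1. Fpr1 and Fpr2 rested on the fewest counts, 0 to 20 and 11 to 73 per library, and the part of depth in their spread was not tested.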
